A study of Gallus gallus with 8 samples.

Results

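Messenger RNA of chicken (Gallus gallus) cranial neural crest cells grown with 10 µg/ml of recombinant DAN was compared with that of untreated cells, in 5 of the 8 libraries analysed here. The libraries were taken by their labels: 3 with 10 µg/ml DAN (replicates 1, 2 and 3) and 2 with no DAN added (replicates 2 and 3). No untreated replicate 1 is among the 8 libraries. The remaining 3 libraries, at 1 µg/ml DAN, took no part in the test and serve to place single genes, to class genes by level and in alternative fits. Of the 17108 genes in the count table, 13753 passed a filter on low counts in these 5 libraries and were tested. All cultures were leghorn chick neural tube pieces, cut at the level of rhombomeres 3 to 5 from embryos of Hamburger and Hamilton stage 8, freed of other tissue with Dispase and set on dishes coated with poly-D-lysine and fibronectin in Ham's F-12 medium. They were kept overnight with or without DAN, the tube and any ectoderm were lifted off, and the adherent migrated cells were lysed, at 200 to 1000 cells per sample per the labels. Each library is therefore a small pool of cells that had left a cultured tube, outside the embryo, and carries no genetic change.

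The neural crest is a transient embryonic population that forms at the border of the neural plate, leaves the dorsal neural tube and migrates; at hindbrain level it enters the branchial arches. DAN, the product of the gene NBL1, is a secreted protein of the DAN family that binds bone morphogenetic proteins and keeps them from their receptors. Bone morphogenetic proteins act through SMAD transcription factors and are among the signals that induce neural crest and start its departure from the tube. By its title the study asked how DAN restrains invasion and keeps migration collective, and this comparison asked which genes of the migrated cells respond to the higher dose.

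The files give genes by Ensembl ID alone, and a reference table of 25635 chicken genes holds 0 of the 17108 IDs. No gene could therefore be named, the lists of bone morphogenetic protein genes, crest specifiers, adhesion and matrix genes and others could not be read, and the crest identity of the cells was not checked against markers. For the same reason the level of NBL1 and markers of tube, ectoderm or mesoderm cells are not analysed here. No sequence is shown. Fewer cells of a type and less RNA per cell cannot be told apart in such bulk samples.

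Libraries with 10 µg/ml DAN held 118020458, 44338765 and 75906045 counts in replicates 1, 2 and 3, and untreated libraries held 47523574 and 112505258 counts in replicates 2 and 3. Genes with at least 1 count numbered 15045 to 15782 per library. The 10 most abundant genes took 7.32% to 7.47% of the counts with DAN, against 6.77% in untreated replicate 2 and 9.64% in untreated replicate 3. A set of 18 genes held at most 3 counts in replicate 2 at 10 µg/ml and at least 100 in each of the other 7 libraries, and 4 genes did so in untreated replicate 2.

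The untreated libraries differed from each other much more than the libraries at 10 µg/ml DAN did. Each replicate is a single library, so differences between cultures and between library preparations cannot be told apart. Pairs of libraries at 10 µg/ml had 1618, 1076 and 1558 of the 13753 genes at least 2-fold apart, while the untreated pair had 3687 genes (26.8%) at least 2-fold apart. These pair ratios are on the scale of log2 CPM (counts scaled to library size with TMM factors, with a prior count of 2). The median distance between the untreated libraries was 0.57 on the log2 scale, and between pairs at 10 µg/ml it was 0.24 to 0.29. Set against untreated replicate 2, the libraries with DAN had 4629 to 5371 genes at least 2-fold apart. Set against untreated replicate 3, they had 3180 to 3716, a range that takes in the 3687 of the untreated pair itself.

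**Figure D1:**
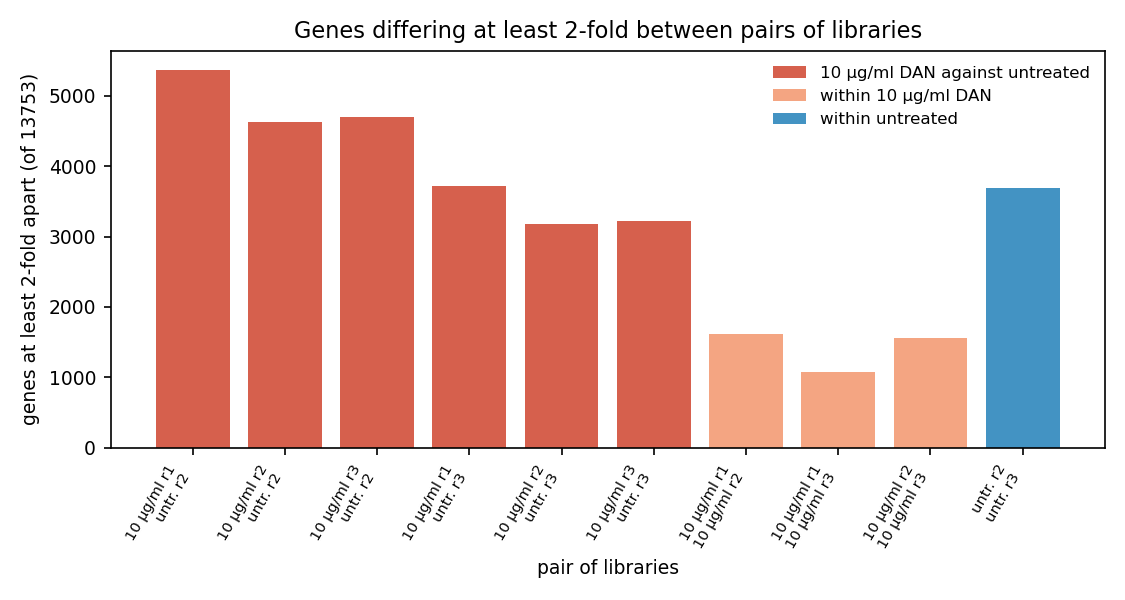
Number of genes at least 2-fold apart (of 13753) in each pair of the 5 libraries; r gives the replicate, dark bars a library at 10 µg/ml DAN against an untreated one, pale bars 2 libraries at 10 µg/ml, and the blue bar the untreated pair. The pale bars reach 1076 to 1618 genes, the blue bar 3687 and the dark bars 3180 to 5371.

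With 10 µg/ml DAN, 885 of 13753 genes (6.43%) were called as changed against untreated cells: 297 (2.16%) rose and 588 (4.28%) fell. A gene is called here at an adjusted p under 0.05 (quasi-likelihood test of edgeR, Benjamini-Hochberg adjustment over all genes tested). The fit took these 5 libraries alone. It gives each gene 1 spread for both groups, although the untreated pair varied more. With quality weights, which let the spread differ between libraries, limma voom called 139 genes (1.01%). The median log2 fold change was 1.60 among genes that rose, with a middle range of 1.11 to 2.42, and -1.72 among genes that fell, with a middle range of -2.31 to -1.29. Over all genes tested the median was -0.05, and the median standard error of a log2 fold change was 0.34. The smallest adjusted p was 0.0205 (edgeR), while 4010 genes (29.2%) had a p under 0.05 before adjustment.

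Where 1 untreated library is left out, the spread comes from the 3 libraries with DAN alone. Counts from such fits leave out the spread between the untreated libraries. Those fits tested 14396 genes without untreated replicate 2 and 13938 without untreated replicate 3. The count of called genes rested on the whole set of libraries. It was 0 without any 1 of the 3 libraries at 10 µg/ml (edgeR; 2249, 3123 and 2629 genes then had an unadjusted p under 0.05 without replicates 1, 2 and 3), 1248 without untreated replicate 2 (472 rose, 776 fell) and 4507 without untreated replicate 3 (2236 rose, 2271 fell). DESeq2 called 2758 genes, 20.9% of those it tested (1256 rose, 1502 fell), edgeR with all 8 libraries in the fit 2304, or 16.4% (1018 rose, 1286 fell), and limma voom with quality weights 139, or 1.01% (19 rose, 120 fell).

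Most called changes were more than 2-fold. In simulated data with 99 genes changed 2-fold and 98 changed 4-fold of 13477, the same fit found 6.06% of 2-fold changes. Small changes could thus be missed. The share found also depends on how many genes change, so it need not carry over to these data. Among genes that rose, 49 changed by less than 2-fold, 142 by 2 to 4-fold, 55 by 4 to 8-fold, 25 by 8 to 16-fold and 26 by more. Among genes that fell, 52 changed by less than 2-fold, 318 by 2 to 4-fold, 159 by 4 to 8-fold, 40 by 8 to 16-fold and 19 by more. At least 2-fold changes were thus called for 248 genes that rose (1.8% of those tested) and 536 that fell (3.9%), and at least 4-fold changes for 106 (0.771%) and 218 (1.59%). The smallest called changes were 1.65-fold up and 1.66-fold down.

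Genes that rose were at a median of 23.4 CPM with 10 µg/ml DAN and 8.19 CPM in untreated cells. Genes that fell were at a median of 4.64 CPM with 10 µg/ml DAN and 16.5 CPM in untreated cells. Per length, the median deposited RPKM, a read count scaled to gene length and library size, of the genes that rose was 11.9, 9.48 and 9.51 in replicates 1, 2 and 3 at 10 µg/ml, against 3.08 and 3.79 in untreated replicates 2 and 3. That of the genes that fell was 2.49, 3.05 and 2.89 at 10 µg/ml, against 9.85 and 8.30 in untreated cells. Over all genes tested the median RPKM was 3.24 to 3.28 at 10 µg/ml, and 3.61 and 3.34 in untreated replicates 2 and 3. These levels describe genes chosen for their difference in the same libraries and are no further evidence of it.

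The genes called in the main fit made up a small part of the counts. Genes that changed without being called are not in these shares. Genes that rose took 2.95%, 2.55% and 2.59% of all counts in replicates 1, 2 and 3 at 10 µg/ml, against 1.19% and 1.16% in untreated replicates 2 and 3. Genes that fell took 1.45%, 1.82% and 1.76% at 10 µg/ml, against 4.52% and 3.69% in untreated cells. Among the 100 most abundant genes, all at 1291 CPM or more on average over the 5 libraries, 1 rose and 1 fell, and their median absolute log2 fold change was 0.24. The largest change either way among these 100, called or not, was 3.60-fold.

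**Figure D2:**
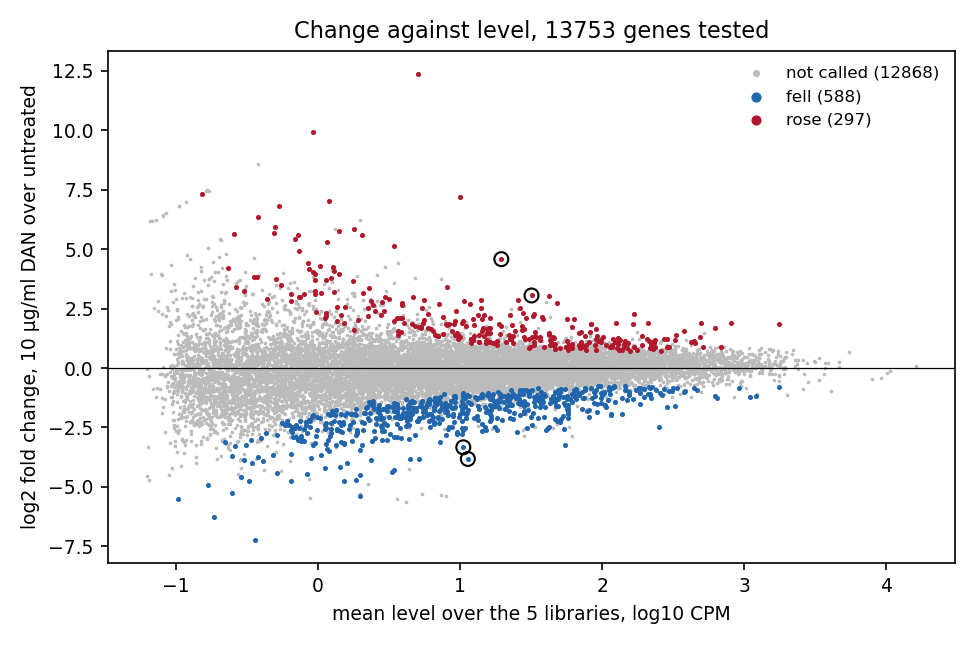
Log2 fold change, 10 µg/ml DAN over untreated, against the mean level over the 5 libraries (log10 CPM) for the 13753 genes tested; red points rose (297), blue points fell (588), grey points were not called, and circles mark the 4 genes given by ID. Called changes lie farther from 0 at low levels: the smallest called change was 3.97-fold under 1 CPM and 1.65-fold over 100 CPM.

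Called genes were found at all levels, and the size of a change that could be called depended on the level. Under 1 CPM, 31 genes rose and 57 fell of 3122, with a median standard error of 0.76 (log2) and no called change under 3.97-fold. From 1 to 10 CPM, 81 rose and 241 fell of 4285. From 10 to 100 CPM, 126 rose and 231 fell of 4414. Over 100 CPM, 59 rose and 59 fell of 1932, with a median standard error of 0.20. The abundant genes changed less, by a median of 2.10-fold among those that rose and 2.00-fold among those that fell over 100 CPM, where 1 gene rose and 1 fell at least 4-fold. Under 1 CPM the medians were 14.4-fold and 7.74-fold, in genes where smaller changes were not called.

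These levels are means over the libraries tested, so a change also moves a gene's class. Classed instead by the mean CPM of the 1 µg/ml libraries, which took no part in the test, 30 rose and 94 fell under 1 CPM, 83 and 228 from 1 to 10 CPM, 117 and 209 from 10 to 100 CPM, and 67 and 57 over 100 CPM. Those libraries also received DAN, so a change present at both doses moves these classes too. Genes that rose were at a median of 20.1 CPM in them, against 8.19 CPM in untreated cells. Genes that fell were at a median of 7.39 CPM in them, against 16.5 CPM in untreated cells. The genes were chosen for their difference from these same untreated libraries, so these medians are no evidence of a response at 1 µg/ml. CPM at 1 µg/ml were scaled with TMM factors of the 1 µg/ml libraries alone. The balance over 100 CPM depended on the libraries and on the method. It was 63 rising and 166 falling genes without untreated replicate 2, and 708 rising and 178 falling genes without untreated replicate 3 (edgeR, classes by the 5 libraries). With every library kept, 245 rose and 130 fell with DESeq2, and 238 and 133 with all 8 libraries in the edgeR fit. With the edgeR fit corrected for gene length, which was chosen after seeing the data, 116 rose and 56 fell. These were the settings farthest from even. The others that kept every library ran from 70 rising and 77 falling genes to 97 and 64. The first had a filter at a minimum count of 50, the last a replicate block in all 8 libraries.

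The filter itself lets some genes in through 1 group alone. Of the genes tested, 248 were under its cutoff of 0.132 CPM in both untreated libraries and 170 were under it in all 3 libraries at 10 µg/ml; 28 of the genes that rose and 20 of those that fell were among these. No count in either untreated library was found for 3 of the genes that rose, and at most 3 counts over both for 10. At most 3 counts over the 3 libraries at 10 µg/ml were found for 5 of the genes that fell.

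A few of the called genes are given in full, by a rule on level and separation. They are the 2 largest rises and the 2 largest falls among called genes with a mean of at least 10 CPM over the 5 libraries and no overlap between groups. The rule was met by 185 genes that rose and 290 that fell. Every called gene had no overlap between groups, so that condition removed none and is no added evidence. A larger rise, a log2 fold change of 7.20, lay just outside at 9.98 CPM. Since the IDs are not paired with names, nothing can be said of what these genes do.

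ENSGALG00000015079 (implied length 989 bases) stood at 33.3, 34.5 and 27.4 CPM in replicates 1, 2 and 3 at 10 µg/ml, against 0.475 and 2.11 CPM in untreated replicates 2 and 3. It was thus low in both untreated cultures, at 26 and 219 counts in replicates 2 and 3, and at a similar level in all 3 cultures with DAN. The means were 31.7 ± 3.84 CPM (SD, n = 3) with 10 µg/ml DAN and 1.29 ± 1.15 CPM (SD, n = 2) in untreated cells, a log2 fold change of 4.58 ± 0.62 (SE; adjusted p = 0.0226, edgeR), or 24.0-fold. With untreated replicate 2 left out the change was 3.93, and with untreated replicate 3 left out it was 6.07 (edgeR). The SE takes 1 spread for both groups, so it can be too small where the untreated libraries lie this far apart. Per length it was at 0.474 and 2.16 RPKM in untreated replicates 2 and 3, at 22.1, 26.9 and 2.67 RPKM in replicates 1, 2 and 3 at 1 µg/ml, and at 34.7, 35.5 and 28.3 RPKM at 10 µg/ml. At 1 µg/ml, replicate 3 was thus close to the untreated libraries while replicates 1 and 2 were close to those at 10 µg/ml. The ranges of neighbouring doses still did not overlap.

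ENSGALG00000010402 (implied length 857 bases) stood at 61.6, 44.1 and 41.8 CPM at 10 µg/ml, against 5.59 and 6.24 CPM in untreated cells. The untreated libraries nearly coincided for it and lay far below all 3 with DAN. The means were 49.2 ± 10.8 CPM (SD, n = 3) with 10 µg/ml DAN and 5.91 ± 0.455 CPM (SD, n = 2) in untreated cells, a log2 fold change of 3.06 ± 0.27 (SE; adjusted p = 0.0205, edgeR), or 8.31-fold. Per length it averaged 6.90 ± 0.656 RPKM (SD, n = 2) in untreated cells, 23.5 ± 1.74 RPKM (SD, n = 3) at 1 µg/ml and 58.8 ± 13.3 RPKM (SD, n = 3) at 10 µg/ml, with no overlap between neighbouring doses.

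ENSGALG00000029169 (implied length 1077 bases) fell to 1.20, 2.43 and 1.85 CPM at 10 µg/ml, against 41.7 and 9.70 CPM in untreated replicates 2 and 3. All 3 libraries with DAN were low, while the untreated libraries were far apart. The means were 1.83 ± 0.618 CPM (SD, n = 3) with 10 µg/ml DAN and 25.7 ± 22.6 CPM (SD, n = 2) in untreated cells, a log2 fold change of -3.82 ± 0.61 (SE; adjusted p = 0.0245, edgeR), or 14.2-fold lower. With untreated replicate 2 left out the change was -2.40, and with untreated replicate 3 left out it was -4.52 (edgeR). Here too the SE, which takes 1 spread for both groups, can be too small. On log2(RPKM + 1) it was not called (adjusted p = 0.0593, limma). Per length it stood at 38.1 and 9.11 RPKM in untreated replicates 2 and 3, at 5.00, 1.34 and 1.40 RPKM at 1 µg/ml, and at 1.15, 2.30 and 1.75 RPKM at 10 µg/ml, so the ranges at 1 and 10 µg/ml overlapped.

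ENSGALG00000028472 (implied length 1728 bases) fell to 1.64, 2.64 and 2.58 CPM at 10 µg/ml, against 17.4 and 28.5 CPM in untreated cells. The 3 libraries with DAN lay close together and well under both untreated ones. The means were 2.28 ± 0.558 CPM (SD, n = 3) with 10 µg/ml DAN and 23.0 ± 7.87 CPM (SD, n = 2) in untreated cells, a log2 fold change of -3.33 ± 0.34 (SE; adjusted p = 0.0205, edgeR), or 10.1-fold lower. Per length it averaged 13.3 ± 4.79 RPKM (SD, n = 2) in untreated cells, 5.14 ± 2.47 RPKM (SD, n = 3) at 1 µg/ml and 1.35 ± 0.324 RPKM (SD, n = 3) at 10 µg/ml. Neighbouring doses did not overlap for this gene either. The share of all genes with no such overlap across the doses was not counted. Without any 1 library at 10 µg/ml these 4 genes kept their direction but were not called (adjusted p = 0.0810 to 0.158, edgeR), as was so for all genes. At 1 µg/ml the values share the untreated libraries with the comparison at 10 µg/ml and are no independent check of it.

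**Figure D3:**
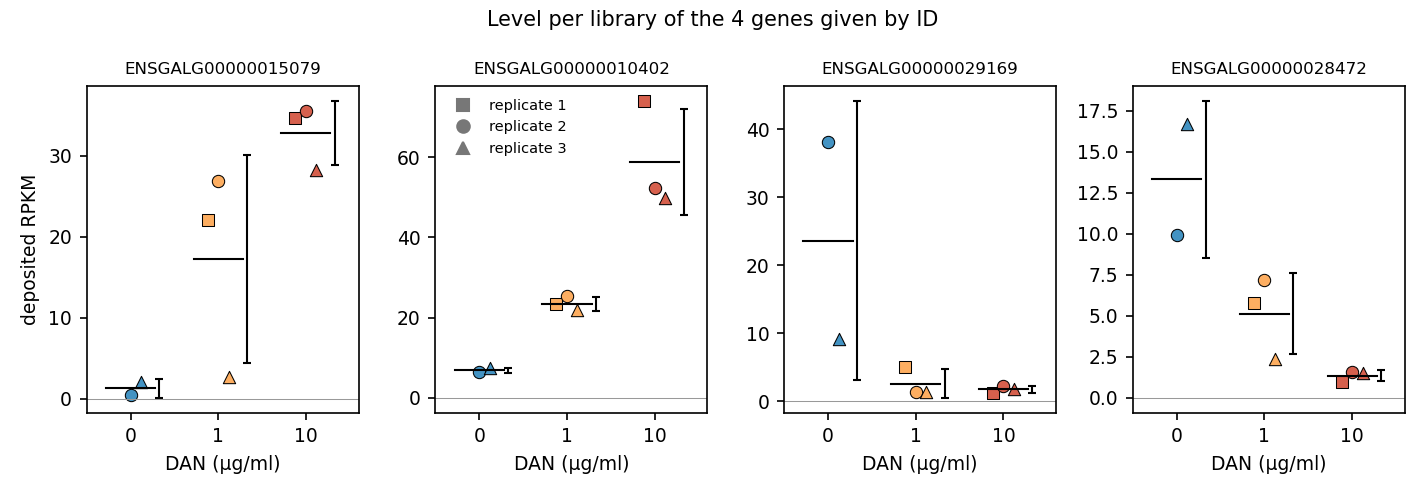
Deposited RPKM of the 4 genes given by ID in each library, by DAN dose (0, 1 and 10 µg/ml); symbols mark the replicate, lines the group mean and side bars its SD (n = 2, 3 and 3). Neighbouring doses do not overlap in ENSGALG00000015079, ENSGALG00000010402 and ENSGALG00000028472. In ENSGALG00000029169 the untreated libraries are far apart at 38.1 and 9.11 RPKM, and the ranges at 1 and 10 µg/ml overlap.

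Separation of the groups was common in this comparison. All 885 called genes had their 3 libraries at 10 µg/ml on 1 side of both untreated libraries (297 above, 588 below), and so did 6626 of all genes tested (48.2%), 23.3% above and 24.9% below. A stricter description asks for at least a 2-fold difference in all 6 pairs of a library with DAN and an untreated one, which 920 genes (6.69%) met, 337 (2.45%) higher and 583 (4.24%) lower with DAN. Of these, 166 were called as risen and 367 as fallen, while 171 and 216 were not called. The untreated libraries were at least 2-fold apart for 38 of the 297 genes that rose and 91 of the 588 that fell, against 26.8% of all genes tested; genes whose groups vary less are more readily called.

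The size of the change also depended on which untreated library it was measured against. The mean at 10 µg/ml was at least 2-fold higher than untreated replicate 2 for 2112 genes and at least 2-fold lower for 2650. Against untreated replicate 3 these counts were 1248 and 1940. Both untreated libraries gave an at least 2-fold higher level for 656 genes and an at least 2-fold lower one for 1171. In 4345 of 13753 genes the direction differed between the untreated libraries, and in 211 of these the level with DAN was at least 2-fold above 1 of them and at least 2-fold below the other. Among called genes the median log2 ratio of rises was 1.60 to 1.84 against untreated replicate 2 and 1.33 to 1.61 against untreated replicate 3, over the 3 libraries with DAN. For falls it was -1.94 to -1.65 and -1.76 to -1.41.

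**Figure D4:**
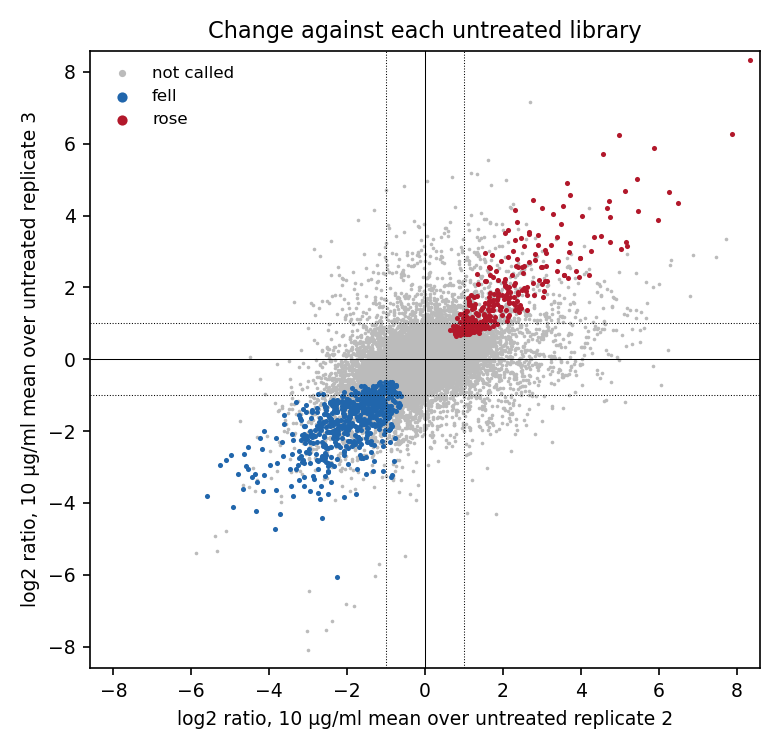
Log2 ratio of the mean at 10 µg/ml DAN over untreated replicate 2 (horizontal) and over untreated replicate 3 (vertical) for the 13753 genes tested; red points rose, blue points fell, grey points were not called, and dotted lines mark 2-fold. The ratios share the libraries with DAN, called genes lie in the corners where both ratios have the same sign, and 4345 genes lie where the signs differ.

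Short genes fell more often than they rose, and this balance depended on the untreated library. Genes were parted by their implied length into 4 equal classes with medians of 773, 1644, 2740 and 4975 bases. In the shortest class 27 rose and 205 fell of 3439 genes; in the next 90 and 205 of 3438, then 90 and 100 of 3438, and in the longest class 90 rose and 78 fell of 3438. The median length was 2506 bases among genes that rose, 1566 bases among genes that fell and 2132 bases over all genes tested. Over all genes of the shortest class, called or not, the median log2 ratio of the mean at 10 µg/ml was 0.07 over untreated replicate 2 and -0.27 over untreated replicate 3. In the longest class it was -0.15 over untreated replicate 2 and 0.16 over untreated replicate 3.

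The length trend differed more between the 2 untreated libraries than among the 3 with DAN. Deviations are taken from a mean in which 3 of 5 libraries had DAN, so a trend shared by those 3 is largely removed. In the shortest class the median deviation from a gene's mean over the 5 libraries was -0.02, -0.04 and -0.02 (log2) in replicates 1, 2 and 3 at 10 µg/ml, against -0.11 in untreated replicate 2 and 0.26 in untreated replicate 3. Without untreated replicate 3, 532 genes of the shortest class rose and 408 fell, and in the longest 458 rose and 635 fell, so the balance turned in both classes. Without untreated replicate 2, 40 rose and 376 fell in the shortest class, and 158 rose and 64 fell in the longest. With offsets corrected for gene length in each library, chosen after seeing the data, 1031 genes (7.5%) were called, of which 95 rose and 172 fell in the shortest class and 88 rose and 95 fell in the longest (edgeR in all of these). The part of the length trend in single calls was not tested.

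**Figure D5:**
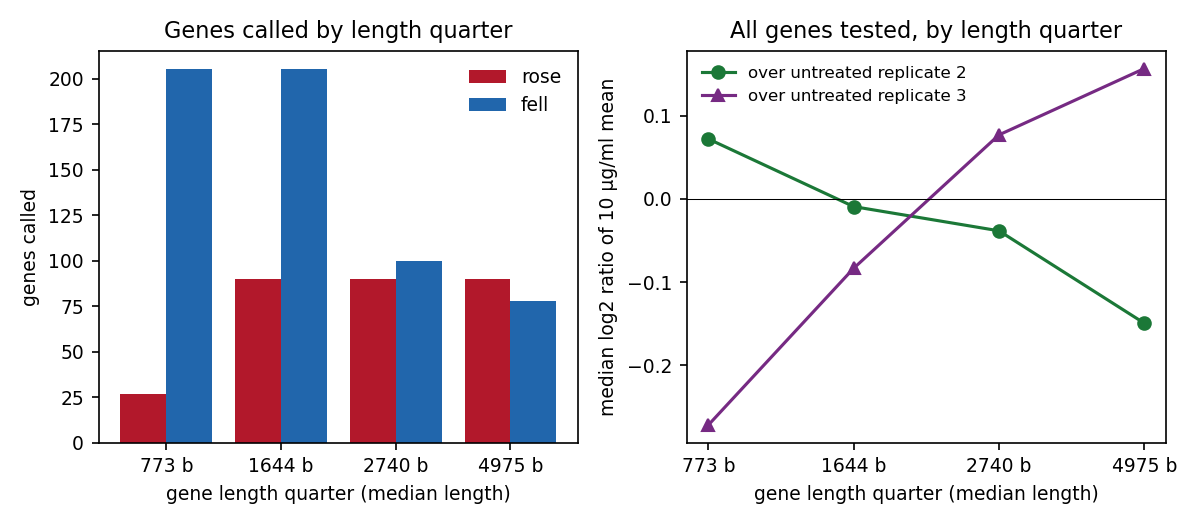
Left, number of genes called as risen or fallen at 10 µg/ml DAN in 4 equal classes of implied gene length (bases, class median on the axis); right, median log2 ratio of the mean at 10 µg/ml over each untreated library for all genes tested in the class. In the shortest class 27 genes rose and 205 fell, and its median ratio is 0.07 over untreated replicate 2 and -0.27 over untreated replicate 3.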

How the data were processed

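Low-input cDNA (SMART-seq v4) and Nextera XT libraries, per the labels, mark neither strand nor molecules. Overlapping genes on opposite strands therefore cannot be separated. The floor given below takes in counting error alone, while SDs and SEs also take in differences between libraries. Whole-number counts and RPKM values per gene and library were deposited. The submitters' processing notes name, with no role, the genome build galGal4, bedtools, edgeR 3.12.0, FastQC 0.10.1 and TopHat2 2.0.13. For reads with several matches the treatment is not stated in these sources. Deposited counts over deposited RPKM followed TMM-adjusted totals within 0.0136% for 5133 genes, and this ratio gave the gene lengths.

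The 5 libraries compared were fitted with edgeR 4.0.16 (R 4.3.3), with TMM factors, 1 mean for each group and no replicate block. A fit of all 8 was kept as an alternative, since the untreated pair was known to vary more. The filterByExpr function (minimum count 10) left 13753 of 17108 genes. The SE is the log2 fold change over the root of the F statistic. It rests on 1 spread per gene for both groups, so it can be too small where the untreated libraries are far apart. limma 3.58.1 and DESeq2 1.42.0 were alternatives. The floor of 3 counts was 0.0274 to 0.0694 CPM in the 5 libraries, on TMM factors taken over all 8. CPM of single genes in these 5 libraries use factors taken over the 5 alone, so the 2 scales differ slightly. Library pairs within the 2 groups compared differed beyond sampling noise (chi-square per degree of freedom 77.1 to 360). This value also grows with the number of counts, so it does not measure relative spread. Simulated data of this comparison held 13477 genes, 99 changed 2-fold and 98 changed 4-fold. In them the fit found 6.06% of 2-fold and 56.1% of 4-fold changes. Of its 64 calls, 3 were false. The rate of false calls with a larger spread or a length trend in the untreated libraries was not tested. Recovery with more genes changed was not tested either.

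The comparison, the rule for named genes (2 each way, 12 had symbols been known) and the gene lists were chosen with earlier results of these data known.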

Additional observations from a re-analysis of the deposited data

How the results depend on the processing

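Of the 885 genes called, 258 (84 rose, 174 fell) were called under all 12 alternatives that kept the 5 libraries and used no quality weights, and 0 under all 19 alternatives (edgeR, limma or DESeq2), since 3 of these called 0 genes. The 12 include a replicate block in the 5 libraries, where replicate 1 at 10 µg/ml adds nothing to the fold changes. Genes called both here and under an alternative never differed in direction (0 genes). All alternatives reuse these libraries, and the groups do not overlap in called genes, so this is no separate check. Counts are given as changed, rose, fell, rose at least 2-fold and fell at least 2-fold, against 885, 297, 588, 248 and 536. With DESeq2 they were 2758, 1256, 1502, 693 and 1110. With all 8 libraries in the fit they were 2304, 1018, 1286, 547 and 946. With limma voom quality weights they were 139, 19, 120, 19 and 120. With weights per group, added after seeing the data, they were 126, 16, 110, 16 and 110. These weights were 0.400 to 0.407 for untreated libraries and 1.43 to 2.61 for those with DAN. Without 1 library in turn, the counts ran from 0 to 4507, 0 to 2236, 0 to 2271, 0 to 1354 and 0 to 1671. With 1 untreated library left, it is assumed to vary like those with DAN. On log2(RPKM + 1), 146 genes rose and 311 fell at least 2-fold, where the pseudocount shrinks the changes of low genes by construction. The cause of the other shifts was not tested. Other size factors, filters, limma voom, log2(RPKM + 0.1) and length-corrected offsets (added after seeing the data) gave 638 to 1065 genes changed. With the replicate block in the 5 libraries, 605 genes changed, 264 rose and 341 fell, all 341 at least 2-fold. Replicate 1 has no untreated library, so that fit rests on replicates 2 and 3 and has little left to estimate the spread. With no block, edgeR called 0 genes when replicate 1 at 10 µg/ml was left out. With the replicate block in all 8 libraries, 1140 changed and 486 rose. Same-numbered libraries with 10 µg/ml DAN and untreated had deviations correlated at 0.03 and -0.03 across genes. With 2 untreated libraries, deviations from their mean mirror each other, so these values cannot settle whether the numbers pair the samples. The main fit did not take them as paired. Between 10 and 1 µg/ml the same-numbered pairs were at 0.13, 0.18 and 0.06, and each of these 6 libraries correlated best with its own number at the other dose, a hint from the data and not from the design. Gene lists could not be read under any setting for want of symbols. The smallest change called was 3.97-fold under 1 CPM and 1.65-fold over 100 CPM.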
